A study of Mus musculus with 9 samples.

Results

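The lysosomal hydrolases and lysosomal membrane proteins described here are encoded by 38 of the 18049 genes in the deposited expression table, taken by their symbols. They are 9 cathepsins, 10 glycosidases, 4 sulfatases, 6 lipid enzymes and lumenal lipid proteins, 6 membrane proteins, and 3 others (the peptidase gene Tpp1, the progranulin gene Grn and the regulator gene Tfeb). The study sequenced RNA from bone marrow-derived macrophages, which are macrophages grown in culture from mouse marrow cells. The marrow came from C57BL/6 mice aged 8 weeks, with no engineered allele named in the labels, and all cultures were in RPMI medium. Control cells received medium alone, another group 15d-PGJ2 at 1 µM and the last group 15d-PGJ2-PC at 1 µM, each for 6 h, with 3 libraries per group and 9 in all. 15d-PGJ2 is a cyclopentenone prostaglandin, while the meaning of PC is not stated in the labels and the structure of 15d-PGJ2-PC is therefore not described. Nothing in the labels tells whether replicate libraries came from different cultures or mice, and the p-values therefore reflect library-to-library spread that could be technical.

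Lysosomes are acidic organelles in which proteases, glycosidases, sulfatases and lipases take apart material that the cell has eaten or that autophagy delivers, and macrophages, as professional phagocytes, are rich in them. Most lumenal hydrolases reach the lysosome with a mannose 6-phosphate tag, while the membrane proteins shield the limiting membrane and carry cystine, cholesterol and ions across it. Many lysosomal genes hold in their promoters the CLEAR element, a palindromic E-box bound by Tfeb and its relatives Tfe3, Mitf and Tfec, and inherited loss of single hydrolases causes lysosomal storage diseases.

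Promoter windows are shown because the CLEAR core, CACGTG, lies in members that went in opposite directions after treatment. Windows of 300 bases around the start site, most of them upstream, are written 5′ to 3′ on the gene's strand and come from RefSeq on GRCm38.p6. Capitals mark each CACGTG. Mcoln1 lies at chr8:3500269-3500568 (plus strand), Gaa at chr11:119267713-119268012 (plus strand), Lipa at chr19:34527425-34527724 (minus strand), Sgsh at chr11:119355461-119355760 (minus strand), Lamp1 at chr8:13158911-13159210 (plus strand) and Ctsc at chr7:88277835-88278134 (plus strand). The first 3 belong to genes that rose with 15d-PGJ2 and the last 3 to genes that fell, and these 6 were chosen after the values were seen.
Mcoln1: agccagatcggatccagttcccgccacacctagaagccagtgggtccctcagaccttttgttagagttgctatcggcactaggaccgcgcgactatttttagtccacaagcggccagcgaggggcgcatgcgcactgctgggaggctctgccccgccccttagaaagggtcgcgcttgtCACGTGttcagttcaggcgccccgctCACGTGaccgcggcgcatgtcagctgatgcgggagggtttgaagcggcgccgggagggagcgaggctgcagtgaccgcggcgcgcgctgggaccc
Gaa: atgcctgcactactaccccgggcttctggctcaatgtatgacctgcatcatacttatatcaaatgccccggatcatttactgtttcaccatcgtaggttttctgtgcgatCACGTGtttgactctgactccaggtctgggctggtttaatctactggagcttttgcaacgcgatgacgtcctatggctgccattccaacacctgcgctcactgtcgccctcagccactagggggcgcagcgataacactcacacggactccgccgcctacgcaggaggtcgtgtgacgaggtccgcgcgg
Lipa: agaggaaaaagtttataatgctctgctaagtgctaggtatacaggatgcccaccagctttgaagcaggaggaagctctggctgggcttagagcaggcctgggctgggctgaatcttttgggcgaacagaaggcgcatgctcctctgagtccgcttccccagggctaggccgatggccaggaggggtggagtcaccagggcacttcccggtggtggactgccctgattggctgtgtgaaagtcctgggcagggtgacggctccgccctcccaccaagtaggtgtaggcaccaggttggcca
Sgsh: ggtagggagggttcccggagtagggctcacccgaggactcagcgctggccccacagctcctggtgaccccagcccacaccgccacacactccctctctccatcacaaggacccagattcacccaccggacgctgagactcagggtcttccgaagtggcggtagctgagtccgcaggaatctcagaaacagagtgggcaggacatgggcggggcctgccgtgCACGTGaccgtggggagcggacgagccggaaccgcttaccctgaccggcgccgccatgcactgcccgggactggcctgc
Lamp1: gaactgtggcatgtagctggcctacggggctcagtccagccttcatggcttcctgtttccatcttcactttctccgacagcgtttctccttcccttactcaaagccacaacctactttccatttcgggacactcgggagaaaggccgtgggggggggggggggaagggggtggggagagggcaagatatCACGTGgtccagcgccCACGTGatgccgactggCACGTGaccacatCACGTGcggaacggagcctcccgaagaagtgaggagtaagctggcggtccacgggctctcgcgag
Ctsc: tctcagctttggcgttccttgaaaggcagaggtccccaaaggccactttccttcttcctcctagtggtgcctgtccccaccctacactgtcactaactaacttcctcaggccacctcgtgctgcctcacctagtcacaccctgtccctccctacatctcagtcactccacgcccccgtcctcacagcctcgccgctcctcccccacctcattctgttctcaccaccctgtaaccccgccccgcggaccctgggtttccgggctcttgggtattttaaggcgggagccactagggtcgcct

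Mcoln1 held the hexamer at 2 places, starting 71 and 45 bases before the start site, and Gaa at 1 place, 140 bases before it. In Lamp1 it stood at 4 places within 61 bases of the start site, and in Sgsh at 1 place, 29 bases before it. The letters CACGTG do not occur in these windows of Lipa and Ctsc. Gaa and Sgsh are near neighbours on chromosome 11, Gaa at 119267963 to 119285458 and Sgsh at 119343489 to 119355510.

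Libraries held about 5.36 to 5.47 M reads each, as estimated from the spacing of low values of FPKM (fragments per kilobase of transcript, scaled to library size), and log2 values of libraries of a group correlated at 0.991 to 0.992 across genes, which are not independent replicates. The macrophage markers Lyz2, Adgre1 and Csf1r were at 3940, 983 and 399 FPKM on average in control libraries, as the labelled cell type has them. The summed FPKM of 7 macrophage markers ran from 5830 to 6007 in control, 4464 to 4785 in 15d-PGJ2 and 5192 to 5327 in 15d-PGJ2-PC libraries. All 7 fell with 15d-PGJ2 and 6 fell with 15d-PGJ2-PC. Summed markers of stroma, epidermis, red cells, neutrophils and dendritic cells were higher in each control library than in any treated one. The 7 stromal markers summed to 32.2 to 35.0 FPKM in controls and 6.73 to 8.84 in treated libraries, the 5 epidermal markers to 20.1 to 24.6 against 0.51 to 1.37, and the 4 listed red cell markers to 19.6 to 31.8 against 0 to 0.91. The 6 neutrophil markers summed to 25.0 to 28.2 FPKM in control, 11.5 to 15.4 in 15d-PGJ2 and 17.5 to 24.4 in 15d-PGJ2-PC libraries, and the 4 dendritic cell markers to 30.4 to 31.6, 19.1 to 22.3 and 23.5 to 26.2. The neutrophil sum is mostly S100a8 and S100a9, and Mpo went the other way, at 0.0933, 1.69 and 1.99 FPKM in control, 15d-PGJ2 and 15d-PGJ2-PC libraries (limma, adjusted p = 7.74e-05 and 7.91e-05 against control). S100a8 did not pass with 15d-PGJ2-PC (adjusted p = 0.844). The dendritic cell sum is nearly all Batf3, at 31.0, 20.5 and 24.6 FPKM in control, 15d-PGJ2 and 15d-PGJ2-PC libraries. Flt3, Zbtb46 and Ccr7 averaged at most 0.44 FPKM in any group and were below the filter of the test. Of these, Flt3 went the other way, at 0.05, 0.297 and 0.44 FPKM. In both treated groups Krt5, Krt14, Krt1 and Lor were listed at 0 in every library. These marker levels moved with both comparisons against control, the macrophage markers also between the compounds (7 of 7 higher with 15d-PGJ2-PC), and their part in the lysosomal results was not tested. In RNA from whole cultures, fewer cells of a type and less RNA per cell cannot be told apart.

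Together the 38 genes took 4.23% to 4.26% of a control library's summed FPKM, 3.75% to 3.94% of a 15d-PGJ2 library's and 4.11% to 4.27% of a 15d-PGJ2-PC library's. FPKM is scaled to gene length, so levels can be set side by side between genes. Psap, Ctsd and Ctsb had ranks 5, 6 and 13 among all genes in controls, at 5805 ± 79.0, 4008 ± 53.3 and 2121 ± 52.1 FPKM (mean ± SD, n = 3 libraries in all such values). At the other end, Ctsk was at 1.41 ± 0.635 FPKM, which at this depth is about 6 to 15 reads per library. All 38 passed the filter of at least 1 FPKM in at least 3 libraries, 37 of them in all 9 libraries and Ctsk in 6. The median coefficient of variation within a group was 3.09% to 3.64%, and Ctsk varied most, by 45.1% in controls.

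**Figure D1:**
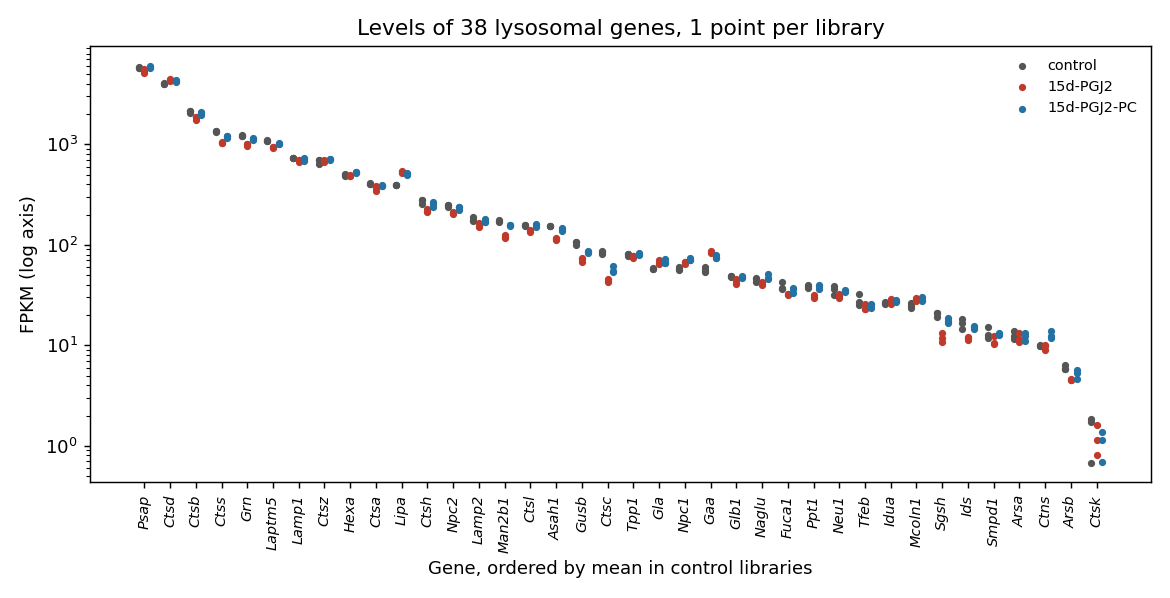
FPKM on a log axis for the 38 lysosomal genes, ordered by their mean in control libraries, with 1 point per library and a colour per group. Control means run from 5805 FPKM for Psap to 1.41 for Ctsk, and for most genes the 9 points of a gene lie close together compared with the range between genes.

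With 15d-PGJ2, lysosomal genes mostly fell by small steps and a small set rose. Among the 38 members, 21 fell, 6 rose and 11 did not pass the test, against control (limma's moderated test on log2(FPKM + 1), Benjamini-Hochberg adjusted p below 0.05 over all tested genes). Of all 11309 tested genes, 47.2% were called in this comparison, 25.0% as falls and 22.2% as rises, so 55.3% of the members against 25.0% of all genes fell, while the 15.8% that rose is below the 22.2% of all genes. Among genes with a mean of at least 10 FPKM, 31.0% fell and 27.8% rose, and of the 36 members among them 20 fell and 6 rose. The median difference was -0.19 on the log2 scale over the members and -0.016 over all tested genes, and no member changed 2-fold. The 3 libraries of each group did not overlap for 27 members, 21 of them lower and 6 higher with 15d-PGJ2, where 28.8% and 26.3% of all tested genes were so. Macrophage markers fell with the same treatment by a median of 0.53, and their part in the lysosomal falls was not tested.

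With 15d-PGJ2-PC, 8 members rose, 6 fell and 24 did not pass, against control. Over all tested genes 27.8% were called, 13.8% as rises and 14.1% as falls, so the 15.8% of members that fell is close to the background and the 21.1% that rose is somewhat above it. Among genes with a mean of at least 10 FPKM, 19.3% rose and 19.4% fell, which leaves the members' 22.2% and 16.7% near the background. The median member differed from control by -0.039 and the median gene by -0.004. Groups did not overlap for 20 members, 9 higher and 11 lower, where 20.5% and 21.3% of all tested genes were so. Without control replicate 2 the number of rises was 5 instead of 8.

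Set side by side at the same dose and time, 15d-PGJ2-PC left lysosomal genes higher than 15d-PGJ2 did. In that comparison 19 members were higher with 15d-PGJ2-PC, none was called lower and 19 did not pass; without the intensity trend 12 were higher. Of all tested genes 20.6% were called, 12.3% as higher and 8.3% as lower with 15d-PGJ2-PC. Among genes with a mean of at least 10 FPKM 18.8% were higher and 11.2% lower, and 19 of 36 members (52.8%) were higher. Groups did not overlap for 29 members, 28 of them higher with 15d-PGJ2-PC and 1, Gaa, lower, where 20.5% and 16.7% of all tested genes were so. The median difference was 0.15 over the members and 0.016 over all tested genes. Beside limma's count of 0 members called lower, 1 member (Gaa) was lower at an unadjusted p below 0.05, and other settings called 0 to 2. The 3 comparisons share libraries, so their counts are not independent of each other.

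**Figure D2:**
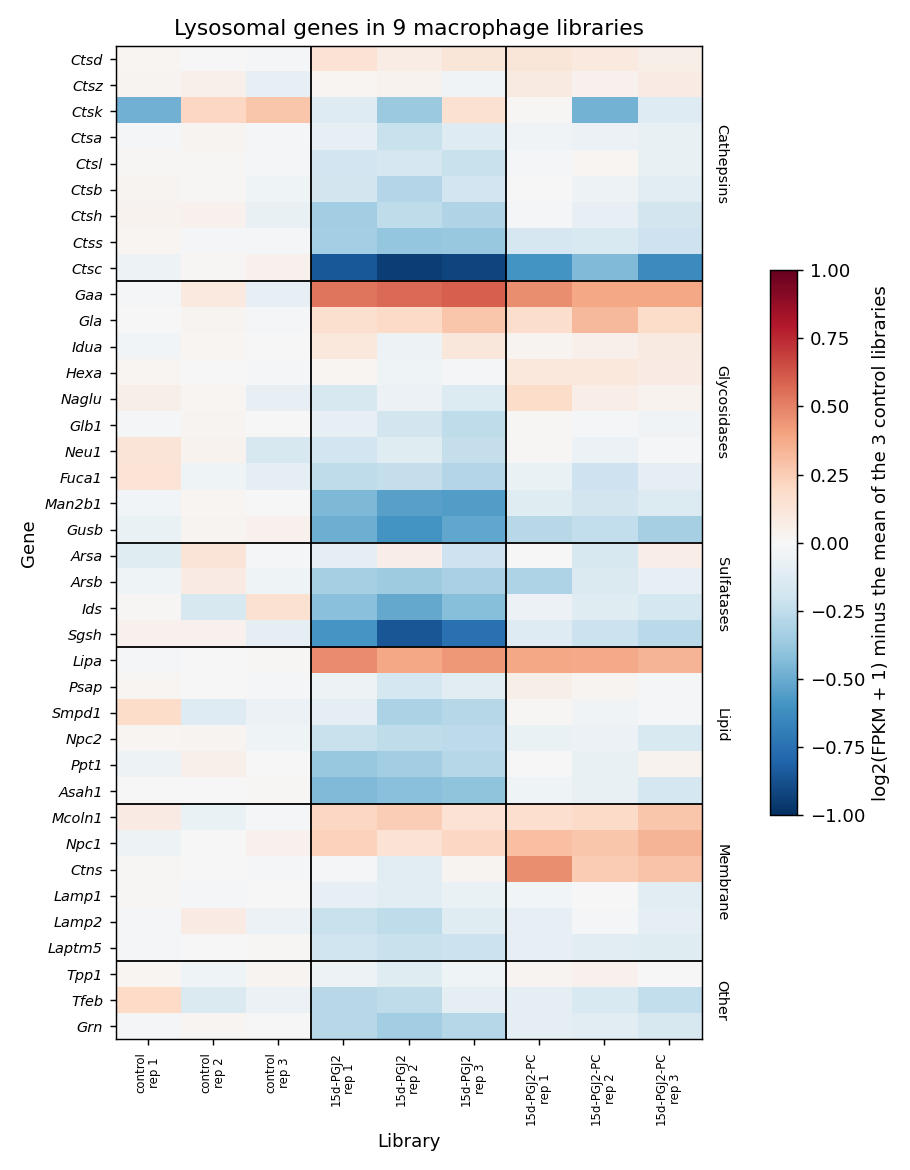
Each cell gives log2(FPKM + 1) in 1 library minus the mean of the 3 control libraries, for the 38 genes grouped by class, with red for higher and blue for lower values. Blue is deepest in the 15d-PGJ2 columns, at Ctsc, Sgsh, Man2b1 and Gusb, while Gaa and Lipa are red in all 6 treated libraries; the pale red of Ctsd turns to a fall with 15d-PGJ2 under quantile normalization.

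In the mean levels, 24 of the 38 genes stood in the order 15d-PGJ2, then 15d-PGJ2-PC, then control from lowest to highest. A further 5 (Hexa, Naglu, Psap, Ctns and Tpp1) were lowest with 15d-PGJ2 and highest with 15d-PGJ2-PC. Members above control in both treated groups were Ctsz, Gla, Idua, Mcoln1 and Npc1, highest with 15d-PGJ2-PC, and Ctsd, Gaa and Lipa, highest with 15d-PGJ2. Of these, Ctsd fell with 15d-PGJ2 under quantile normalization. Ctsk was lowest with 15d-PGJ2-PC and highest in control. Many neighbours in these orders did not pass a test, as given below. How many of all tested genes stood in each order was not counted, so the orders cannot be called particular to lysosomal genes.

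Among the 9 cathepsins, 6 fell with 15d-PGJ2 and 1, Ctsd, rose, a direction that reversed under quantile normalization; 2 fell and 1 rose with 15d-PGJ2-PC. The median differences of the cathepsins were -0.19 with 15d-PGJ2 and -0.06 with 15d-PGJ2-PC. Over all tested genes 25.0% fell and 22.2% rose with 15d-PGJ2. With 15d-PGJ2-PC 14.1% fell and 13.8% rose, which leaves the 2 falls and 1 rise of cathepsins with it near the background. Ctsc encodes cathepsin C, the dipeptidyl peptidase that activates granule serine proteases (Entrez 13032, chromosome 7, 88278024 to 88315861, GRCm38 as throughout). It stood at 80.3, 84.0 and 85.8 FPKM in the control libraries, 45.8, 43.0 and 43.6 in the 15d-PGJ2 libraries and 54.7, 61.2 and 53.2 in the 15d-PGJ2-PC libraries. Every treated library was below every control, and the 15d-PGJ2 libraries were the lowest. Ctsc differed from control by -0.90 (SE 0.056, adjusted p = 2.89e-07) with 15d-PGJ2 and by -0.56 (SE 0.056, adjusted p = 3.52e-05) with 15d-PGJ2-PC, the largest fall of any member in both comparisons. Ctss, the cysteine protease that trims the invariant chain of MHC class II (Entrez 13040, chromosome 3, 95526786 to 95556405), measured 1371, 1342 and 1339 FPKM in the control libraries, 1066, 1031 and 1036 in the 15d-PGJ2 libraries and 1205, 1215 and 1167 in the 15d-PGJ2-PC libraries. No 2 groups overlapped, and the order was that of Ctsc. Ctss differed from control by -0.37 (SE 0.026, adjusted p = 8.69e-07) and -0.18 (SE 0.026, adjusted p = 0.00056) with 15d-PGJ2 and 15d-PGJ2-PC.

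Ctsd, the main aspartic protease of lysosomes (Entrez 13033, chromosome 7, 142375910 to 142387827), measured 4059, 4013 and 3953 FPKM in the control libraries, 4421, 4224 and 4355 in the 15d-PGJ2 libraries and 4371, 4283 and 4169 in the 15d-PGJ2-PC libraries. All 6 treated libraries were above the 3 controls and the 2 treated groups overlapped. Its difference from control was 0.11 (SE 0.027, adjusted p = 0.00549) with 15d-PGJ2, though it reversed to -0.11 (adjusted p = 0.0283) under quantile normalization, and 0.092 (SE 0.027, adjusted p = 0.0253) with 15d-PGJ2-PC. That second call was lost without control replicate 2, 15d-PGJ2-PC replicate 1 or 15d-PGJ2-PC replicate 2 (adjusted p = 0.0722, 0.104 and 0.0785) and under quantile normalization (0.299). With no filter and without the intensity trend neither call held (adjusted p = 0.073 and 0.0776 with 15d-PGJ2, 0.186 and 0.183 with 15d-PGJ2-PC). The exons of Ctsd share 34.4% of their bases with the overlapping gene model Gm49369 on the same strand, so reads of the pair may not be separable.

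The cysteine proteases Ctsb, Ctsh and Ctsl and the carboxypeptidase Ctsa, which protects the enzymes of Glb1 and Neu1, also fell with 15d-PGJ2. Ctsb went from 2121 ± 52.1 to 1818 ± 76.4 FPKM, Ctsh from 270.4 ± 12.5 to 219 ± 7.42, Ctsl from 157 ± 2.22 to 137 ± 2.94 and Ctsa from 404 ± 6.36 to 366 ± 18.6. Their differences were -0.22, -0.30, -0.19 and -0.14 on the log2 scale (adjusted p = 0.000567, 0.000497, 0.000969 and 0.00874). None of the 4 passed with 15d-PGJ2-PC, where the means were 2047, 254, 155 and 389 FPKM. Under quantile normalization the difference of Ctsb was -0.58 with 15d-PGJ2 and passed with 15d-PGJ2-PC (-0.35, adjusted p = 0.00141), and those of Ctss were -0.58 and -0.34; without the intensity trend the call of Ctsa was lost (adjusted p = 0.0506). Pltp, on the strand opposite to Ctsa and sharing 10.5% of its exon bases, went from 709 to 739 FPKM in controls to 513 to 570 with 15d-PGJ2, and its part in the Ctsa reads was not tested.

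Ctsz, a carboxypeptidase, and Ctsk, the collagen-cleaving protease of osteoclasts, passed in no comparison. Ctsz stood at 678 ± 32.2, 681 ± 18.1 and 713 ± 12.4 FPKM in control, 15d-PGJ2 and 15d-PGJ2-PC libraries. Under quantile normalization it was called higher with 15d-PGJ2-PC than in control (0.09, limma, adjusted p = 0.0487) and than with 15d-PGJ2 (0.10, adjusted p = 0.0362). For Ctsk the 95% intervals of the differences from control were -0.63 to 0.40 and -0.71 to 0.32. At this depth the data allow any difference within those bounds, on a scale that understates the change of low genes. The 4 osteoclast markers in the table summed to 190.4 to 207 FPKM in controls, 141 to 147 with 15d-PGJ2 and 178 to 191 with 15d-PGJ2-PC, most of it Acp5 (162 ± 8.01), a phosphatase that macrophages also express; the osteoclast fusion gene Ocstamp was at 0.763 ± 0.191.

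Among the 10 glycosidases, 4 fell and 2 rose with 15d-PGJ2, and 3 rose and 2 fell with 15d-PGJ2-PC. Over all tested genes 22.2% rose and 25.0% fell with 15d-PGJ2, and 13.8% rose and 14.1% fell with 15d-PGJ2-PC, which leaves the 2 rises with 15d-PGJ2 and the 2 falls with 15d-PGJ2-PC near the background. Gaa, the acid alpha-glucosidase that breaks down glycogen (Entrez 14387, chromosome 11, 119267963 to 119285458), measured 55.9, 60.4 and 53.3 FPKM in the control libraries, 82.2, 84.2 and 86.1 in the 15d-PGJ2 libraries and 78.5, 74.0 and 74.2 in the 15d-PGJ2-PC libraries. Every treated library was above every control, and the 15d-PGJ2 libraries were above the 15d-PGJ2-PC libraries. Gaa differed from control by 0.57 (SE 0.050, adjusted p = 4.5e-06) with 15d-PGJ2 and 0.41 (SE 0.050, adjusted p = 0.000125) with 15d-PGJ2-PC, the largest rise of any member in both. Gla, the alpha-galactosidase that clears globotriaosylceramide (Entrez 11605, chromosome X, 134588169 to 134601005), measured 57.7, 59.0 and 57.0 FPKM in the control libraries, 65.0, 66.2 and 70.3 in the 15d-PGJ2 libraries and 65.4, 72.9 and 65.8 in the 15d-PGJ2-PC libraries. Treated libraries all lay above controls, and the 2 treated groups overlapped. The differences of Gla from control were 0.21 (SE 0.051, adjusted p = 0.00595) and 0.23 (SE 0.051, adjusted p = 0.00676).

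Gusb, which removes glucuronic acid from glycosaminoglycans (Entrez 110006, chromosome 5, 129989011 to 130003049), measured 98.4, 105 and 106 FPKM in the control libraries, 73.6, 68.0 and 71.7 in the 15d-PGJ2 libraries and 85.0, 86.9 and 82.1 in the 15d-PGJ2-PC libraries. Man2b1, the alpha-mannosidase of glycoprotein breakdown (Entrez 17159, chromosome 8, 85082730 to 85098739), measured 169.6, 176 and 174 FPKM in the control libraries, 126, 119 and 117 in the 15d-PGJ2 libraries and 159, 153 and 157 in the 15d-PGJ2-PC libraries. For both genes the 3 groups were fully apart, lowest with 15d-PGJ2. Gusb differed from control by -0.54 (SE 0.046, adjusted p = 3.46e-06) and -0.29 (SE 0.046, adjusted p = 0.000838), and Man2b1 by -0.52 (SE 0.038, adjusted p = 1.01e-06) and -0.15 (SE 0.038, adjusted p = 0.0136). The fall of Man2b1 with 15d-PGJ2-PC was lost without control replicate 2 (adjusted p = 0.0519) or 15d-PGJ2-PC replicate 2 (0.0556), and without the intensity trend (0.0616).

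Glb1, the beta-galactosidase, went from 48.6 ± 0.775 to 43.0 ± 2.59 FPKM with 15d-PGJ2 and Fuca1, a fucosidase, from 38.8 ± 3.50 to 32.1 ± 0.607. Both fell, by 0.17 and 0.26 on the log2 scale (adjusted p = 0.013 and 0.00711), and neither passed with 15d-PGJ2-PC. The call of Glb1 was lost without 15d-PGJ2 replicate 3 (adjusted p = 0.0541) and under quantile normalization (-0.097, adjusted p = 0.129). Hexa, the alpha subunit of beta-hexosaminidase, rose only slightly with 15d-PGJ2-PC, from 494 ± 7.79 to 529.5 ± 5.11 FPKM (log2 difference 0.10, adjusted p = 0.0197), a call lost without control replicate 2, 15d-PGJ2-PC replicate 1 or 15d-PGJ2-PC replicate 2 (adjusted p = 0.0559, 0.0651 and 0.0657) and without the intensity trend (0.138). The sialidase gene Neu1, the heparan sulfate hydrolase gene Naglu and the iduronidase gene Idua passed in neither comparison with control. Their differences with 15d-PGJ2 were -0.18, -0.12 and 0.056 (adjusted p = 0.055, 0.0992 and 0.434). Without control replicate 3, Neu1 (-0.27, adjusted p = 0.00454) and Naglu (-0.16, adjusted p = 0.048) passed.

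**Figure D3:**
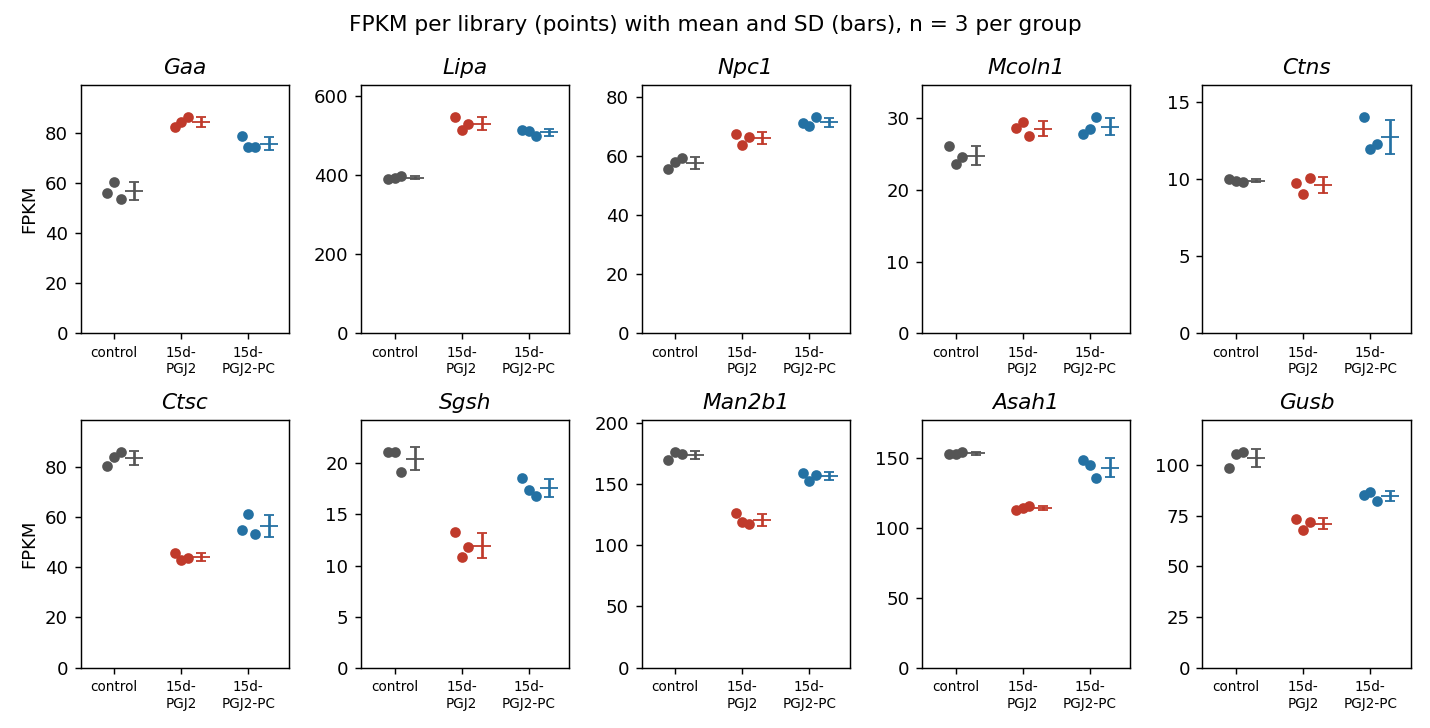
FPKM in each library (points) with the mean and SD of the 3 libraries of a group (bars) for 10 genes, each on its own linear axis from 0. The upper row holds genes higher than control in 1 or both treated groups, with Ctns raised with 15d-PGJ2-PC alone by limma's test; the lower row holds genes that are lowest with 15d-PGJ2 and between with 15d-PGJ2-PC.

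The 4 sulfatases strip sulfate groups from glycosaminoglycans and sulfolipids, and 3 of them fell with 15d-PGJ2. None passed against control with 15d-PGJ2-PC. Over all tested genes 25.0% fell with 15d-PGJ2 and 27.8% were called with 15d-PGJ2-PC, so little can be read from counts among 4 genes. Sgsh, the sulfamidase of heparan sulfate breakdown (Entrez 27029, chromosome 11, 119343489 to 119355510), measured 21.1, 21.1 and 19.2 FPKM in the control libraries, 13.2, 10.8 and 11.8 in the 15d-PGJ2 libraries and 18.6, 17.4 and 16.8 in the 15d-PGJ2-PC libraries. The 3 groups did not overlap, and the 15d-PGJ2 libraries were lowest. Sgsh differed from control by -0.73 (SE 0.078, adjusted p = 1.99e-05) with 15d-PGJ2 and by -0.21 (SE 0.078, adjusted p = 0.0751) with 15d-PGJ2-PC, a difference that passed without 15d-PGJ2 replicate 1 (adjusted p = 0.0455). Card14, on the opposite strand and sharing 21.6% of the exon bases of Sgsh, was listed at 3.47 to 4.12 FPKM in controls, 1.86 to 3.17 with 15d-PGJ2 and 3.57 to 3.89 with 15d-PGJ2-PC. The strand setting of the count is not given, and the part of Card14 reads in the result was not tested. Exon overlaps of at least 10% were found for 8 members; besides Ctsd, Ctsa and Sgsh these were Arsb with Gm26527, Ctsl with Gm47123, Arsa with C230037L18Rik, Ctsb with Fdft1 and Hexa with Tmem202 (32.3%, 26.8%, 18.8%, 12.8% and 12.8% of exon bases).

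Ids, the iduronate sulfatase (Entrez 15931, chromosome X, 70343069 to 70385834), measured 16.5, 14.6 and 18.3 FPKM in the control libraries, 12.0, 11.2 and 11.9 in the 15d-PGJ2 libraries and 15.7, 15.0 and 14.4 in the 15d-PGJ2-PC libraries. The 15d-PGJ2 libraries were below both other groups, which overlapped each other. Its difference from control was -0.45 (SE 0.080, adjusted p = 0.000853) with 15d-PGJ2 and -0.12 (SE 0.080, adjusted p = 0.318) with 15d-PGJ2-PC. Arsb, which acts on dermatan sulfate, was low and fell from 6.02 ± 0.349 to 4.55 ± 0.0513 FPKM with 15d-PGJ2 (log2 difference -0.34, adjusted p = 0.0084), about 97 to 141 reads per library over the study. Arsa, the sulfatidase, stood at 12.5 ± 1.17, 11.8 ± 1.21 and 12.2 ± 1.04 FPKM in control, 15d-PGJ2 and 15d-PGJ2-PC libraries and passed in neither comparison with control.

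Of the 6 lipid enzymes and lumenal lipid proteins, 4 fell and 1 rose with 15d-PGJ2, and 1 rose with 15d-PGJ2-PC. Over all tested genes 25.0% fell and 22.2% rose with 15d-PGJ2, and 13.8% rose with 15d-PGJ2-PC. The 1 rise in each comparison is near that background. Of the 4 falls, that of Psap was lost in 7 of 18 alternatives. Lipa, the acid lipase that frees cholesterol and fatty acids from esters taken up by endocytosis (Entrez 16889, chromosome 19, 34492316 to 34527474), measured 389, 392 and 397 FPKM in the control libraries, 546, 514 and 530.4 in the 15d-PGJ2 libraries and 515, 512 and 498 in the 15d-PGJ2-PC libraries. Every treated library exceeded every control by a wide margin, and the 2 treated groups overlapped slightly. Lipa differed from control by 0.43 (SE 0.030, adjusted p = 6.83e-07) with 15d-PGJ2 and 0.37 (SE 0.030, adjusted p = 7.68e-06) with 15d-PGJ2-PC. Asah1, the acid ceramidase (Entrez 11886, chromosome 8, 41340646 to 41397644), measured 153, 153 and 154 FPKM in the control libraries, 113, 114 and 116 in the 15d-PGJ2 libraries and 148, 145 and 136 in the 15d-PGJ2-PC libraries. Its 15d-PGJ2 libraries lay far below the others, and the 15d-PGJ2-PC libraries lay just under the controls. The differences of Asah1 from control were -0.42 (SE 0.038, adjusted p = 5.41e-06) and -0.10 (SE 0.038, adjusted p = 0.0771).

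Ppt1, which removes palmitate from proteins (Entrez 19063, chromosome 4, 122836077 to 122859175), measured 37.4, 40.0 and 38.6 FPKM in the control libraries, 29.4, 30.1 and 31.6 in the 15d-PGJ2 libraries and 38.9, 36.6 and 39.5 in the 15d-PGJ2-PC libraries. The 15d-PGJ2 libraries were lowest, and the other 2 groups overlapped. Ppt1 differed from control by -0.34 (SE 0.050, adjusted p = 0.000247) with 15d-PGJ2 and -0.013 (SE 0.050, adjusted p = 0.886) with 15d-PGJ2-PC. Npc2, the lumenal cholesterol carrier, fell from 246 ± 6.95 to 207 ± 2.88 FPKM with 15d-PGJ2 (log2 difference -0.25, adjusted p = 0.000209). Its mean of 230.3 FPKM with 15d-PGJ2-PC did not pass against control (adjusted p = 0.0812; 0.041 without control replicate 3). Psap, the precursor of the saposins that present sphingolipids to their hydrolases, went from 5805 ± 79.0 to 5386 ± 244 FPKM with 15d-PGJ2 (-0.11, adjusted p = 0.0233). That call was lost without control replicate 1 or 2 or 15d-PGJ2 replicate 2 or 3 (adjusted p = 0.0744, 0.0561, 0.0895 and 0.0515), with no filter, with median-ratio scaling and without the intensity trend (0.151, 0.0684 and 0.122), and its size was -0.42 under quantile normalization. Smpd1, the acid sphingomyelinase, had a control level of 13.2 ± 1.66 FPKM and 11.1 ± 1.04 after 15d-PGJ2 (adjusted p = 0.0608), and passed without control replicate 2 or 15d-PGJ2 replicate 1 (adjusted p = 0.0356 and 0.0272).

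Of the 6 membrane proteins, 2 rose and 3 fell with 15d-PGJ2, and 3 rose and 1 fell with 15d-PGJ2-PC. With 47.2% and 27.8% of all tested genes called in these comparisons, such counts among 6 genes show nothing particular to them. Npc1 (Entrez 18145), which exports cholesterol from the lysosome, measured 55.6, 58.0 and 59.5 FPKM in the control libraries, 67.7, 63.9 and 66.7 in the 15d-PGJ2 libraries and 71.3, 70.2 and 73.3 in the 15d-PGJ2-PC libraries. The 3 groups were apart, with 15d-PGJ2-PC highest. Npc1 differed from control by 0.19 (SE 0.042, adjusted p = 0.00303) and 0.31 (SE 0.042, adjusted p = 0.000282) with 15d-PGJ2 and 15d-PGJ2-PC. Mcoln1, a lysosomal calcium channel also called TRPML1 (Entrez 94178, chromosome 8, 3500519 to 3515232), measured 26.2, 23.6 and 24.5 FPKM in the control libraries, 28.7, 29.5 and 27.5 in the 15d-PGJ2 libraries and 27.9, 28.5 and 30.2 in the 15d-PGJ2-PC libraries. Treated libraries exceeded controls, and the 2 treated groups overlapped. Mcoln1 differed from control by 0.20 (SE 0.056, adjusted p = 0.0135) and 0.21 (SE 0.056, adjusted p = 0.0169); without control replicate 2 neither passed (adjusted p = 0.0547 and 0.067), nor did the first without 15d-PGJ2 replicate 2 (0.0512) or the second without 15d-PGJ2-PC replicate 3 (0.0667).

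Ctns, the cystine exporter (Entrez 83429, chromosome 11, 73183133 to 73199115), measured 9.97, 9.87 and 9.79 FPKM in the control libraries, 9.73, 9.04 and 10.1 in the 15d-PGJ2 libraries and 14.0, 11.9 and 12.3 in the 15d-PGJ2-PC libraries. Its 15d-PGJ2-PC libraries stood above all others, and the other groups overlapped. The difference from control was -0.037 (SE 0.074, adjusted p = 0.714) with 15d-PGJ2 and 0.33 (SE 0.074, adjusted p = 0.00628) with 15d-PGJ2-PC. Laptm5, a lysosomal membrane protein of blood cells (Entrez 16792, chromosome 4, 130912890 to 130936148), measured 1075, 1086 and 1092 FPKM in the control libraries, 945, 929 and 932 in the 15d-PGJ2 libraries and 1022, 1005 and 999 in the 15d-PGJ2-PC libraries. The groups did not overlap and 15d-PGJ2 was lowest. Laptm5 differed from control by -0.21 (SE 0.023, adjusted p = 2.27e-05) and -0.10 (SE 0.023, adjusted p = 0.0066), the second of which was lost without the intensity trend (adjusted p = 0.11).

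Lamp1, a heavily glycosylated protein of the limiting membrane (Entrez 16783, chromosome 8, 13159161 to 13175338), measured 737, 726 and 729.9 FPKM in the control libraries, 691, 674 and 698 in the 15d-PGJ2 libraries and 716, 729 and 681 in the 15d-PGJ2-PC libraries. Controls lay above the 15d-PGJ2 libraries, and the 15d-PGJ2-PC libraries overlapped both. Lamp1 differed from control by -0.088 (SE 0.030, adjusted p = 0.0354) with 15d-PGJ2 and -0.045 (SE 0.030, adjusted p = 0.314) with 15d-PGJ2-PC. The first call was lost in 8 of 18 alternatives, among them each of the 5 in turn that left out control replicate 1 or 2 or any 15d-PGJ2 library (adjusted p = 0.0504 to 0.118). Lamp2, its companion and the receptor of chaperone-mediated autophagy, fell from 180.4 ± 9.50 to 157 ± 7.74 FPKM with 15d-PGJ2 (log2 difference -0.20, adjusted p = 0.00609) and was at 172 ± 5.47 with 15d-PGJ2-PC (adjusted p = 0.366).

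Grn, whose product progranulin is cut into granulins in the lysosome (Entrez 14824, chromosome 11, 102430507 to 102436809), measured 1213, 1238 and 1216 FPKM in the control libraries, 1008, 961 and 1003 in the 15d-PGJ2 libraries and 1145, 1128 and 1093 in the 15d-PGJ2-PC libraries. The 3 groups were apart, lowest with 15d-PGJ2. Grn differed from control by -0.30 (SE 0.029, adjusted p = 7.72e-06) and -0.12 (SE 0.029, adjusted p = 0.00808), the second lost without the intensity trend (adjusted p = 0.0849). Tfeb itself (Entrez 21425, chromosome 17, 47737037 to 47792416) measured 32.1, 25.1 and 26.7 FPKM in the control libraries, 22.8, 23.2 and 26.0 in the 15d-PGJ2 libraries and 26.0, 24.9 and 23.3 in the 15d-PGJ2-PC libraries. Control replicate 1 was the highest of the 9, and the groups overlapped. Tfeb differed from control by -0.21 (SE 0.089, adjusted p = 0.077) and -0.17 (SE 0.089, adjusted p = 0.206), neither of which passed; without control replicate 2 or 15d-PGJ2 replicate 3 the first did (adjusted p = 0.0335 and 0.0494). The level of its RNA says nothing of where the protein is in the cell. Tpp1, a tripeptidyl peptidase, stood at 80.2 ± 2.20, 76.3 ± 2.30 and 81.2 ± 1.37 FPKM in control, 15d-PGJ2 and 15d-PGJ2-PC libraries. It passed in no comparison, except with 15d-PGJ2 against control under equal-sum scaling (-0.11, limma, adjusted p = 0.0455).

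The 2 compounds were compared directly at 1 µM and 6 h, as 1 pair. Sgsh showed the largest difference, 0.52 higher with 15d-PGJ2-PC (limma, SE 0.078, adjusted p = 0.000812). Ctns followed at 0.37 (SE 0.074, adjusted p = 0.00479), Man2b1 at 0.37 (SE 0.038, adjusted p = 6.56e-05) and Ctsc at 0.34 (SE 0.056, adjusted p = 0.00145). Ids and Ppt1 differed by 0.33 (SE 0.080, adjusted p = 0.0133) and 0.33 (SE 0.050, adjusted p = 0.00105); Ids did not pass without 15d-PGJ2 replicate 2 or 15d-PGJ2-PC replicate 1 (adjusted p = 0.0507 and 0.0512). For all 6 genes every 15d-PGJ2-PC library was above every 15d-PGJ2 library. Of these, Ctns was the only one called higher with 15d-PGJ2-PC than in control.

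By class, 5 of 9 cathepsins (Ctsb, Ctsc, Ctsh, Ctsl and Ctss), 5 of 10 glycosidases (Hexa, Gusb, Glb1, Naglu and Man2b1), 2 of 4 sulfatases (Ids and Sgsh), 4 of 6 lipid proteins (Asah1, Psap, Ppt1 and Npc2), 2 of 6 membrane proteins (Ctns and Laptm5) and Grn were higher with 15d-PGJ2-PC. Of all tested genes 12.3% were higher with 15d-PGJ2-PC, and of those with a mean of at least 10 FPKM 18.8%. From 2 of 4 sulfatases and 2 of 6 membrane proteins little can be read beside these shares. The medians were 0.17 for cathepsins, 0.15 for glycosidases, 0.25 for sulfatases, 0.18 for lipid proteins and 0.11 for membrane proteins. Of the 19 calls, 10 held under each of the 18 alternatives. Calls lost with 1 library left out were those of Glb1 (7 libraries, adjusted p = 0.0506 to 0.134), Psap (4 libraries, 0.0574 to 0.0893), Naglu (3 libraries, 0.0631 to 0.0768), Ids, Ctsh (without 15d-PGJ2-PC replicate 1, 0.0512), Hexa (without 15d-PGJ2 replicate 2, 0.0554) and Npc2 (without 15d-PGJ2-PC replicate 2, 0.0507). Neu1 and Lamp2 passed without control replicate 3 and without 15d-PGJ2 replicate 3 (0.0497 and 0.0417).

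**Figure D4:**
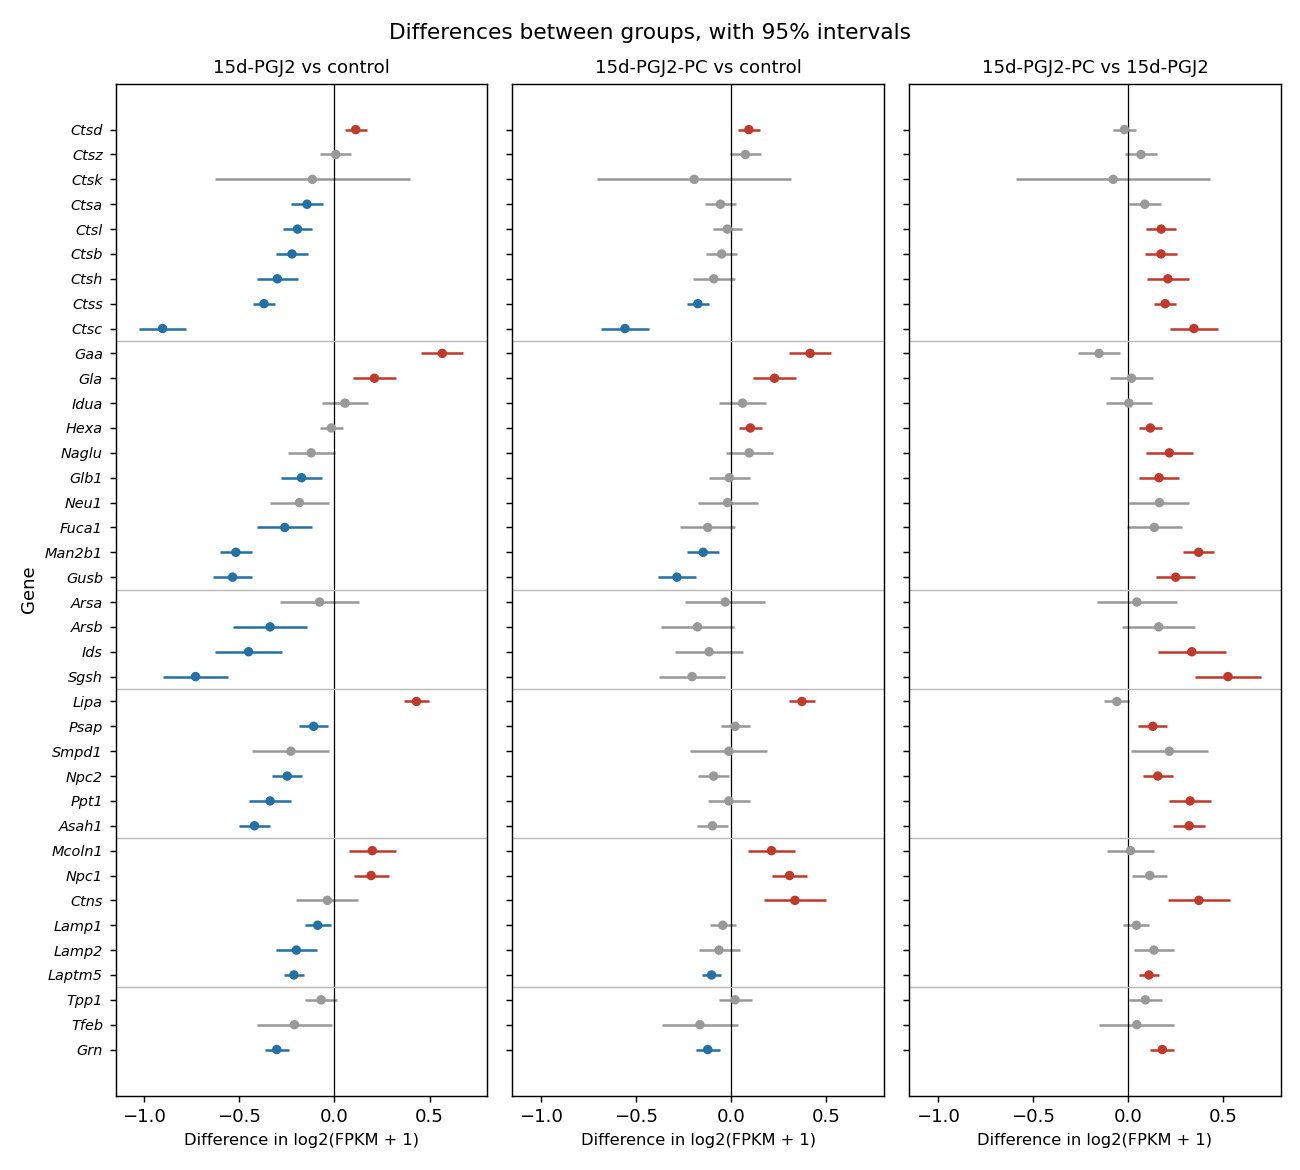
Difference in log2(FPKM + 1) with its 95% interval from limma for each of the 38 genes in the 3 comparisons, with red for rises and blue for falls that passed at an adjusted p of 0.05 and grey for the rest. In the right panel the called differences all lie above 0, in the left panel most lie below it; under quantile normalization Ctsd moves to the other side of 0 in both of these panels.

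Gaa, Gla, Lipa, Mcoln1, Npc1 and Ctsd were called higher than control with both compounds, Ctsd not so under quantile normalization, and none of the 6 passed between the compounds. The intervals give how large a difference the data allow. Between 15d-PGJ2-PC and 15d-PGJ2, Gla differed by 0.017 (95% interval -0.10 to 0.13), Mcoln1 by 0.012 (-0.11 to 0.14) and Ctsd by -0.020 (-0.079 to 0.040), which turned to 0.17 (adjusted p = 0.00862) under quantile normalization. Lipa differed by -0.060 (-0.13 to 0.006) and Npc1 by 0.11 (0.021 to 0.20, adjusted p = 0.0846). For Gaa every 15d-PGJ2-PC library was below every 15d-PGJ2 library, with a difference of -0.15 (limma, SE 0.050, adjusted p = 0.0531) and an interval of -0.27 to -0.043. That difference passed in 6 of 18 alternatives, among them those without control replicate 2 or 3 (adjusted p = 0.0315 and 0.0336). Lamp1 differed by 0.043 (-0.025 to 0.11) and Tfeb by 0.045 (-0.15 to 0.24).

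A promoter window was found for 34 of the 38 members, and not for Asah1, Ctsb, Ctsh and Npc1. CACGTG, read on both strands, occurred in 11 of the 34 (32.4%), against 10.5% of the 13878 table genes with a window and 7.2% of all 32851 windows. GTCACGTG, a longer form that contains the first motif, occurred in 9 (26.5%) against 4.0% of table genes. TGACNNNGC, the core of the antioxidant response element bound by Nrf2, can share its first 4 letters with the reverse complement of GTCACGTG, and occurred in 6 (17.6%) against 16.2% of table genes. The 11 genes with CACGTG were Arsa, Ctsa, Ctsd, Ctsl, Gaa, Gla, Glb1, Lamp1, Mcoln1, Naglu and Sgsh. By the calls with 15d-PGJ2, the hexamer was in 4 of 5 genes that rose, 5 of 18 that fell and 2 of 11 that did not pass, where the rise of Ctsd among the 4 turns to a fall under quantile normalization. In the windows shown above, Mcoln1 and Gaa with the hexamer rose, Lamp1 with 4 copies and Sgsh with 1 fell, and Lipa rose without it, though the call of Lamp1 was lost in 8 of 18 alternatives and that of Mcoln1 in 2. These matches describe letters within 300 bases and were not tested.

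The other genes of the organelle were read from 7 lists, to be set against the background in which 22.2% of all tested genes rose and 25.0% fell with 15d-PGJ2, and 13.8% rose and 14.1% fell with 15d-PGJ2-PC. Of 17 subunits and accessory proteins of the V-ATPase, the pump that acidifies lysosomes, 5 rose and 2 fell with 15d-PGJ2, and 3 rose and none fell with 15d-PGJ2-PC. Atp6v1h, the regulatory subunit H, was at 47.1, 103 and 75.5 FPKM in control, 15d-PGJ2 and 15d-PGJ2-PC libraries, log2 differences of 1.11 and 0.67 from control (adjusted p = 7.21e-08 and 1.22e-05). Atp6v1a, the catalytic subunit, rose from 138 to 194 and 186 FPKM, and Atp6v0a1, of the membrane sector, from 31.2 to 42.0 and 41.4. These shares are near the background, apart from the falls, which are fewer. The median difference of the pump genes was 0.038 with 15d-PGJ2 and 0.059 with 15d-PGJ2-PC.

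Among 21 further hydrolases and cofactors, 3 rose and 10 fell with 15d-PGJ2, 2 rose and 5 fell with 15d-PGJ2-PC, and 9 were higher and 2 lower with 15d-PGJ2-PC than with 15d-PGJ2. Over all tested genes, 22.2% rose and 25.0% fell with 15d-PGJ2, and 13.8% and 14.1% with 15d-PGJ2-PC. Between the compounds 12.3% were higher and 8.3% lower with 15d-PGJ2-PC. The rises against control in this list are below that background, and the falls with 15d-PGJ2 above it. Among genes with a mean of at least 10 FPKM, 31.0% fell with 15d-PGJ2 and 19.4% with 15d-PGJ2-PC. The 5 falls with 15d-PGJ2-PC are near the latter share. Acp2, the lysosomal acid phosphatase, stood at 116, 65.3 and 95.3 FPKM in control, 15d-PGJ2 and 15d-PGJ2-PC libraries (log2 differences -0.83 and -0.29 from control). Lgmn, the asparaginyl endopeptidase that matures cathepsins, fell from 791 to 526 and 668 FPKM. Of 16 further membrane proteins, 7 rose and 3 fell with 15d-PGJ2, and 4 rose and none fell with 15d-PGJ2-PC. Their share of rises is above that of all tested genes, and their share of falls below it. Where the mean was at least 10 FPKM, 27.8% of genes rose with 15d-PGJ2 and 19.3% with 15d-PGJ2-PC. The 4 rises among 16 with 15d-PGJ2-PC are near the latter share. Slc11a1, the metal ion transporter of phagosomes, rose from 343 to 431 and 403 FPKM, and Clcn7, the chloride-proton exchanger, from 57.9 to 72.1 and 76.3. Cd68, a macrophage membrane glycoprotein, fell from 659.7 to 509 FPKM with 15d-PGJ2 and was at 624 with 15d-PGJ2-PC (adjusted p = 0.13).

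In the sorting machinery of hydrolases (6 genes), 2 rose and 2 fell with 15d-PGJ2, and 2 rose and none fell with 15d-PGJ2-PC. With 47.2% and 27.8% of all tested genes called in these comparisons, nothing about lists of this size can be read from such counts. Sort1, sortilin, rose from 8.95 to 14.8 and 11.2 FPKM. Igf2r, a mannose 6-phosphate receptor, fell from 30.0 to 23.8 FPKM with 15d-PGJ2, and Sorl1, a sorting receptor related to sortilin, from 26.3 to 20.6; with 15d-PGJ2-PC they were at 29.3 and 26.9 and did not pass. Of 10 genes for tethering and fusion, 2 rose and 1 fell with 15d-PGJ2, and 2 rose with 15d-PGJ2-PC, where 22.2%, 25.0% and 13.8% of all tested genes did so. Arl8a, a small GTPase that moves lysosomes, rose from 117 to 154 and 142 FPKM, and the HOPS subunit gene Vps18 from 31.8 to 40.1 and 37.7; Vps41, another HOPS subunit, fell from 31.7 to 26.8 with 15d-PGJ2. Of 6 cathepsin inhibitors 2 were tested. Cystatin C (Cst3) fell from 587 to 484 FPKM with 15d-PGJ2, while cystatin B (Cstb) rose from 536 to 576 and 590.1.

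Among the relatives of Tfeb and the proteins that dock mTORC1, the kinase complex that keeps Tfeb in the cytosol, at the lysosome (17 of 18 tested), 7 rose and 4 fell with 15d-PGJ2, and 7 rose and 1 fell with 15d-PGJ2-PC. Of all tested genes 22.2% rose and 25.0% fell with 15d-PGJ2 and 13.8% rose and 14.1% fell with 15d-PGJ2-PC, so the falls with 15d-PGJ2 are at the background and the rises above it. Tfec rose from 10.4 to 17.2 and 17.2 FPKM with 15d-PGJ2 and 15d-PGJ2-PC (log2 differences 0.68 and 0.67, adjusted p = 4.42e-05 and 0.000109). Flcn, folliculin, which acts on the Rag GTPases, rose from 48.5 to 60.9 and 63.3 FPKM, and Rheb, the GTPase that activates mTORC1, from 42.1 to 61.5 and 55.2. Tfe3 and Mitf, named after their values were seen, rose from 71.2 to 82.9 and 79.0 FPKM and from 10.2 to 13.8 and 13.3. Tfeb alone of the 4 factors did not pass with either compound, and the difference between it and its relatives was not tested.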

How the data were processed

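RNA of mouse bone marrow-derived macrophages was sequenced in 9 libraries made with an Illumina TruSeq RNA kit, per the labels' protocols, and grouped by the labelled treatment. The values are FPKM per gene, which the authors deposited in 1 table, per the file headers. The submitters' processing notes name the mm10 build and BWA; no source used here gives its version, the counting tool or the strand setting. The FPKM columns hold no read counts, and the depth of 5.36 to 5.47 M reads was estimated from the steps between low values, so values of a few reads are coarse. Of the symbols, 23 that had been turned into dates were restored.

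The test took genes that reached 1 FPKM in 3 or more libraries (11309 of 18049). Differences of log2(FPKM + 1), a scale that understates the change of low genes, were tested with limma 3.58.1 in R 4.3.3. The fit held all 9 libraries, a mean for each group and an intensity trend in the moderated variance. P-values were two-sided and Benjamini-Hochberg adjusted over all tested genes at 0.05, and intervals are 95%. The procedure was tested on simulated data. Members and lists were chosen with earlier results of these data known. Every member is accounted for. Library values are given for the 6 largest rises and 6 largest falls that passed in each comparison and for Lamp1, Ctsd and Tfeb, and other lists are shown by up to 3 genes with the smallest adjusted p. Alternatives were a pseudocount of 0.1, no filter or one of 5 FPKM, quantile, median-ratio and equal-sum scaling, only the 6 libraries compared, no intensity trend, a replicate block, and each library left out in turn. Same-numbered libraries of different groups did not deviate together (correlations of -0.043 to 0.052 across genes), so the numbers were not used to pair them. Promoter windows are those of RefSeq on GRCm38.p6, matched by symbol.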

Additional observations from a re-analysis of the deposited data

How the results depend on the processing

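Of the calls against control with 15d-PGJ2, 21 of 27 held under each of the 18 alternatives, as did 8 of 14 with 15d-PGJ2-PC and 10 of 19 between the compounds. Ctsd reversed under quantile normalization, to -0.11 with 15d-PGJ2 against control (limma, adjusted p = 0.0283) and to 0.17 between the compounds (adjusted p = 0.00862); the cause was not tested. Members lower with 15d-PGJ2-PC than with 15d-PGJ2 numbered 1, not 0, with a filter of 5 FPKM, median-ratio scaling or the 6 libraries compared, and 2 under quantile normalization. Without the intensity trend, 3 instead of 6 members fell with 15d-PGJ2-PC and 12 instead of 19 were higher with it than with 15d-PGJ2. With 1 library left out, falls and rises numbered 19 to 23 and 5 to 6 with 15d-PGJ2, 5 to 7 and 5 to 8 with 15d-PGJ2-PC, and 0 to 1 and 14 to 20 between the compounds. The 5 rises came without control replicate 2, where Hexa, Mcoln1 and Ctsd lost their calls, and the 1 lower member without control replicate 2 or 3. With the replicate block, 6 members rose and 23 fell with 15d-PGJ2, 8 rose and 6 fell with 15d-PGJ2-PC, and 19 were higher and 0 lower between the compounds. Same-numbered libraries correlated by no more than 0.052. Scaling moved the median gene to at most 0.056 from 0. Ctsk had no value with the filter of 5 FPKM. At 5.36 to 5.47 M reads, depth limits Ctsk most.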
